A study of Mus musculus with 25 samples.

Results

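The neutrophil-like cells of the injured mouse spinal cord are described here. They are the cells that carry code 4 in the Cell_Type column of the authors' deposited table of cells, joined to the raw counts by library and barcode. They numbered 2116 of 30958 cells (6.84%), all of them in 1 of the deposited clusters (code 16). The codes have no names, so the name rests on marker genes, which are checked below. The study profiled myeloid cells sorted from lesions of the mouse cord, with laminectomy alone as the control, by droplet-based 3′ single-cell RNA sequencing of 25 libraries. Each library came from 1 to 3 mice per the series text, so pooled animals are the replicate and p-values measure only the spread between these libraries.

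All mice carried Cx3cr1CreERT2, a Cre that tamoxifen-type drugs switch on, placed in the gene Cx3cr1, which microglia and many monocytes and macrophages use. Mice labelled Cx3cr1CreERT2:R26tdTomato also carried a red reporter (RFP) that Cre switches on, and their cells were sorted as RFP-/YFP+ (infiltrating libraries) or RFP+/YFP+ (resident libraries). Mice labelled Cx3cr1CreERT2 alone gave a single YFP+ sort, called mixed here. The infiltrating libraries were 2 at day 1 (D1), 1 at day 2 (D2) and 1 at day 3 (D3), and the mixed libraries were 3, 2 and 3 on those days. The resident libraries were 1 at day 2 and 2 at day 3. One more day 3 library, D3_conflict 1, is titled as infiltrating and labelled RFP+/YFP+, so its sort is not settled by the labels. Microglia were 0.211% of its cells, against 0.253% to 0.651% in the infiltrating and 67.9% to 91.2% in the resident libraries of day 1 to day 3. The other 9 libraries were laminectomy controls or came from day 10 or day 21. Libraries are named by day, sort and replicate. The series text does not list day 2 among its collection days, so day 2 comes from the sample labels alone. The age of the mice and the injury method are not given in the sources used here.

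Neutrophils are short-lived white cells made in the bone marrow and released into the blood, and they are among the first blood cells to enter injured tissue. They carry ready-made granules of antimicrobial proteins and proteases, find their way with chemokine and formyl peptide receptors, and make chemokines that draw further cells. In the injured cord they are known as an early, transient infiltrate that precedes the build-up of macrophages from blood monocytes.

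The genes that name these cells are S100a8 and S100a9, the subunits of calprotectin, a calcium-binding protein that fills neutrophil cytosol; Lcn2, Ngp and Camp, which encode granule proteins; Mmp9, a gelatinase stored in granules; Retnlg, a resistin-like secreted protein; and Cxcr2, the receptor for the chemokines that recruit neutrophils. On GRCm38 (GENCODE M21), S100a8 lies at chr3:90668978-90670035 on the plus strand and S100a9 at chr3:90692632-90695721 on the minus strand, so the pair are neighbours. Ngp (chr9:110419747-110423012, plus) and Camp (chr9:109847379-109849617, minus) share a chromosome too. The other markers are Retnlg (chr16:48872621-48874496, plus), Cxcr2 (chr1:74153989-74161246, plus), Mmp9 (chr2:164940780-164955850, plus) and Lcn2 (chr2:32384633-32388252, minus). All 8 are protein-coding genes. The stretches before the transcript starts of S100a8 and S100a9, the 2 most abundant markers, and of Ngp, whose transcripts lay in few cells, are shown because their levels carry the results below. They come from the RefSeq promoter table (GRCm38.p6), which holds 7 of the 8 markers, and they stop before the outermost GENCODE transcript start.
S100a8 (chr3:90668821-90668977, plus strand): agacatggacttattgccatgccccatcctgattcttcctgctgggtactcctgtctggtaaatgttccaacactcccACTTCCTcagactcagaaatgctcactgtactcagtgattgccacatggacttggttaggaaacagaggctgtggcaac
S100a9 (chr3:90695722-90695971, minus strand): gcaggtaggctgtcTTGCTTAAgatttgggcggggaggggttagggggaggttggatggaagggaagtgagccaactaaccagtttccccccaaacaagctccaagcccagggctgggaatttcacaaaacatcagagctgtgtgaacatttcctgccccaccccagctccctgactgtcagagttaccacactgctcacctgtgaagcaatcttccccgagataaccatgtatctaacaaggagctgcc
Ngp (chr9:110419558-110419746, plus strand): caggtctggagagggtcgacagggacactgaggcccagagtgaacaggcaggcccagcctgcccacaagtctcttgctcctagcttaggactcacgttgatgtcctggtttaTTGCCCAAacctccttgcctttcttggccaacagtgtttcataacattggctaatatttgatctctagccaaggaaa
Capitals mark matches to 2 motifs searched on both strands. The motif TTNNGCAA, a form of the site that C/EBP factors bind, matched S100a9 and Ngp once each in the stretches shown, and AGGAAGT, a form of the site that PU.1 and other ETS factors bind, matched S100a8 once. Over the 32851 promoter windows of 300 bases in the table, 10.8% held TTNNGCAA and 9.35% held AGGAAGT. In the full windows of 300 bases TTNNGCAA also matched Retnlg and Lcn2 once each and Ngp a further time, and TATAAA, the core promoter box, searched on the given strand only and held by 8.32% of windows, matched S100a8 and S100a9 outside the stretches shown. The matches in capitals do not overlap each other. A match describes letters and was not tied to binding.

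The markers were those of neutrophils. In the 5 libraries with at least 20 neutrophil-like cells, 6 of the 8 markers were at least 4-fold higher than in the macrophages of the same library in every library, as were 0.620% of all genes detected. Macrophages here are the cells of code 2, which carried Lyz2, Apoe and Ccr2 and include monocytes. S100a8 and S100a9 together made up at least 2% of the UMIs (counted RNA molecules) in 1383 neutrophil-like cells (65.4%) and in 9 of all other cells (0.0312%), of which 8 were macrophages. Markers of lymphoid, eosinophil, basophil and mast cells were at or near 0: the summed level of 10 T and NK cell markers was 0 to 8.75 CPM (UMIs of a gene scaled to the same total in every library and cell type) over the 5 libraries, with Cd3e, Cd8a, Cd4, Ncr1, Klrb1c and Gzma at 0. The summed level of 8 eosinophil, basophil and mast cell markers was 0 to 20.4 CPM, with Epx, Prg2, Cpa3 and Fcer1a at 0. B cell markers summed to 14.6 to 72.8 CPM, mostly from Ighm, with Ms4a1 at 0. The 9 microglia markers summed to 326 to 937 CPM, against 304 to 649 CPM in macrophages, and were higher in neutrophil-like cells in 4 of 5 libraries, so microglia genes were not near 0. Of this list, Sall1 and Gpr34 were at 0, P2ry12 stood at 20.2 to 36.5 CPM, Tmem119 at 0 to 10.4 CPM and Cx3cr1 at 0 to 7.41 CPM. Cx3cr1 averaged 34.7 CPM in macrophages, so the gene at the reporter locus was low in both.

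Neutrophil-like cells were found only after injury and only up to day 3 in these libraries. The 9 control, day 10 and day 21 libraries held 0 among 6947 cells. The limit that a count of 0 allows ran from 0.210% to 1.94% by library, and most of these cells were microglia. Both control libraries held microglia alone. The 3 infiltrating libraries of day 10 and day 21, with 608, 183 and 155 cells, allow shares of up to 0.493%, 1.64% and 1.94%. Of the 16 libraries from day 1 to day 3, 14 held at least 1. At day 1 they were 188 of 1827 cells in D1_infiltrating 1 (10.3%, 95% exact binomial interval 8.93% to 11.8%) and 702 of 2770 in D1_infiltrating 2 (25.3%, 23.7% to 27%). The 3 mixed libraries of that day held 10, 2 and 2 (0.807%, 0.249% and 0.145%). At day 2 they were 223 of 793 cells in D2_infiltrating 1 (28.1%, 25% to 31.4%), 51 of 754 in D2_mixed 2 (6.76%, 5.08% to 8.80%), 7 of 600 in D2_mixed 1 (1.17%) and 14 of 1711 in D2_resident 1 (0.818%). These intervals cover counting error only.

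The day 3 libraries stood far apart from each other. D3_conflict 1 held 897 neutrophil-like cells of 3800 (23.6%, 22.3% to 25%), while D3_infiltrating 1 held 11 of 2917 (0.377%, 0.188% to 0.674%) and D3_mixed 3 held 1 of 3628 (0.0276%). Both of these were rich in macrophages, with microglia at 0.651% and 14.4% of cells. D3_mixed 1 and D3_mixed 2 held 0 of 253 and 0 of 319, which allow shares of up to 1.19% and 0.940%. D3_resident 1 held 5 of 159 (3.14%) and D3_resident 2 held 3 of 1060 (0.283%). The gene contrasts of day 3 below therefore rest on D3_conflict 1 alone.

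**Figure D1:**
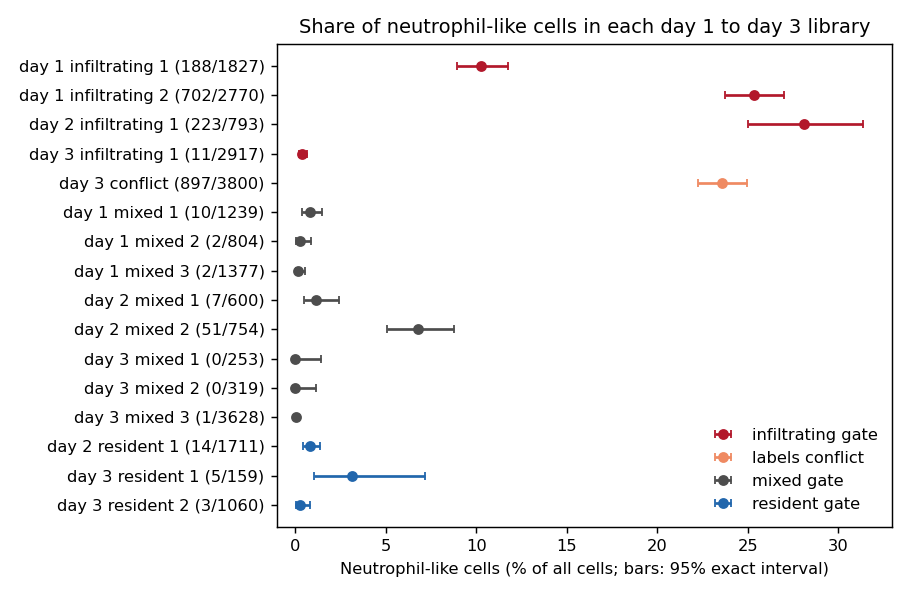
Share of neutrophil-like cells among all cells in each of the 16 libraries from day 1 to day 3, by sort, with counts beside the library names; points are libraries and bars are 95% exact binomial intervals. D1_infiltrating 1 and 2, D2_infiltrating 1 and D3_conflict 1 lie between 10.3% and 28.1%, and every other library lies at 6.76% or below.

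The share was higher in the infiltrating than in the mixed libraries. It averaged 16% ± 13 (SD, n = 4) against 1.14% ± 2.31 (n = 8), a difference of 14.9 points (2-sided exact permutation within days, p = 0.00833, the smallest that 120 arrangements allow; Benjamini-Hochberg adjusted p = 0.0333 over 4 share tests). Among cells that were not microglia, the means were 16.1% ± 13.1 and 7.24% ± 8.44, and that difference did not pass the test (exact permutation p = 0.108, adjusted 0.130), although it did without D1_infiltrating 1 (10.8 points, exact permutation, adjusted p = 0.0208, the smallest p that 48 arrangements allow). The sort and the sequencing pool cannot be told apart in this comparison: no pool held both infiltrating and mixed libraries of day 1 to day 3, and genotype followed sort. Sequencing pool is the name used here for the code in a deposited column headed SLX, whose meaning the header does not give. Leaving out any 1 of 7 libraries (any mixed library of day 1 or day 2, D2_infiltrating 1 or D3_infiltrating 1) took the adjusted p to between 0.05 and 0.133, with fewer arrangements to draw from. Over days, with sorts as strata, neither share passed the test (exact permutation, adjusted p = 0.130 of all cells and 0.109 of cells that were not microglia). The mean share of all cells was 7.37% at day 1, 12% at day 2 and 0.101% at day 3 with D3_conflict 1 left out, and the day 3 mean was 4.8% with that library counted as infiltrating (exact permutation, adjusted p = 0.385). Without D2_infiltrating 1 the day 2 mean was 3.97%, and without D1_infiltrating 2 the day 1 mean was 2.87%. That call depended on the scale and on the day 1 infiltrating libraries: the adjusted p for all cells was 0.00179 on log2 of the share plus 0.1% and 0.00238 without D1_infiltrating 1 or without D1_infiltrating 2. Fewer cells of a type in the cord and fewer caught by a sort give the same share.

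Several facts of the libraries bear on what follows. One sequencing pool of 5 libraries (D1_infiltrating 1 and 2, D2_infiltrating 1, D3_conflict 1 and D3_resident 1) gave 2015 of the 2116 cells (95.2%). Neutrophil-like cells were shallow: their median was 1918 to 2871 UMIs in the 5 libraries used for levels, against 8330 to 12253 in macrophages, a ratio of 0.178 to 0.236, and their median number of genes was 920.5 to 1161 against 2420 to 2974. Their median mitochondrial share of counts was 0 to 0.154%, against 0.645% to 1.60% in macrophages. The label of D2_infiltrating 1 says female, while its sex code in the deposited table is that of the male libraries. Barcodes shared between libraries numbered 127, and 14 neutrophil-like cells carried one. D1_infiltrating 1 was most like D3_conflict 1 over 3032 genes (Spearman's rho 0.899 in neutrophil-like cells and, over 2739 genes, 0.971 in macrophages), more than like D1_infiltrating 2 (0.773 and 0.903). In macrophages, D1_infiltrating 2 was most like D2_infiltrating 1 (0.963). So in these 3 cases the closest library was of a different day, while in neutrophil-like cells D1_infiltrating 2 was closest to D1_infiltrating 1 (0.773, beside 0.764 with D2_infiltrating 1). These are correlations across genes, given as a description. Libraries are used under the labels they carry, and whether any were exchanged was not tested, so every day value below holds for the labels as given.

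Levels were compared with macrophages within each of the 5 libraries, which hold 2061 neutrophil-like cells (97.4%). The UMIs of these cells summed to 437496 in D1_infiltrating 1, 1423232 in D1_infiltrating 2, 685701 in D2_infiltrating 1, 96190 in D2_mixed 2 and 2024695 in D3_conflict 1. Low levels in D2_mixed 2 therefore rest on few UMIs. Counts were summed over the cells of a type, scaled to CPM, and compared as log2 of CPM + 5. Since the cells had been grouped on the same counts, these differences describe the group and carry no test. Of 15487 genes detected, 96 (0.620%) were at least 4-fold higher in neutrophil-like cells in all 5 libraries and 160 (1.03%) at least 4-fold lower. Among the 3584 genes at 50 CPM or more in either type, 91 were higher and 135 lower. The list counts below are to be read beside these. CPM are shares of a cell's RNA, so a level says nothing of the amount of RNA per cell.

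The calprotectin genes differed most from macrophages. S100a8 was at 50231, 59059.9, 93465, 17756 and 24132 CPM in D1_infiltrating 1, D1_infiltrating 2, D2_infiltrating 1, D2_mixed 2 and D3_conflict 1, the order of libraries used for every list of 5 values below. In the macrophages of the same libraries it was at 73.9, 245, 216, 66.6 and 124 CPM. S100a9 was at 43776, 38852, 93223, 12319 and 14578 CPM, against 17.8, 54.2, 12.7, 2.70 and 36.2 CPM in macrophages. The 2 cell types did not overlap for either gene, and the median difference was 7.95 log2 units for S100a8 (range 7.55 to 9.32) and 10.64 for S100a9 (8.47 to 12.36). Together the pair took 9.40%, 9.79%, 18.7%, 3.01% and 3.87% of all UMIs of the neutrophil-like cells, so D2_infiltrating 1 was highest and D2_mixed 2 lowest. Within a library the share varied widely between cells: in D2_infiltrating 1 its quartiles were 8.51% and 23.3% and its highest value 48.7%, and in D3_conflict 1 they were 0.404% and 5.23% with a highest value of 41.6%. The ratio of S100a8 to S100a9 was 1.00 to 1.66 in neutrophil-like cells and 3.42 to 24.7 in macrophages of the same libraries. The highest macrophage ratios rest on few S100a9 UMIs, 20 in D2_mixed 2 (ratio 24.7) and 75 in D2_infiltrating 1 (17.0). In the remaining libraries the macrophage ratio was 3.42 to 4.52. The source of these transcripts in macrophages was not tested.

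Granule genes differed in how evenly the 5 libraries held them. Lcn2, an iron-carrier-binding granule protein, was at 1358, 3047, 7893, 198 and 428 CPM, above its level in macrophages (29.5 to 62.3 CPM) in every library. Retnlg was at 576, 267, 7238, 31.2 and 208 CPM, and at 0 to 1.53 CPM in macrophages. Both were highest in D2_infiltrating 1 and lowest in D2_mixed 2. Mmp9 was at 1424, 542, 1746, 405 and 868 CPM against 1.72 to 8.93 CPM. Wfdc21 and Stfa2l1, genes for small protease-inhibitor-like proteins, were 5.07 and 5.15 log2 units above macrophages in the median. Pglyrp1, a peptidoglycan-binding granule protein, and Ltf, lactoferrin of the specific granule, were 3.66 and 3.75 above. In all, 6 of 20 detected secretory and specific granule genes were at least 4-fold higher in every library (Lcn2, Mmp9, Pglyrp1, Ltf, Wfdc21 and Stfa2l1), 1 was lower (Lyz2, lysozyme, at 462, 329, 379, 364 and 732 CPM against 9873 to 16728 CPM) and 13 were neither. The median difference of the list was 1.35 log2 units, beside -0.01 over all genes detected.

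Ngp and Camp, granule genes of immature neutrophils in the marrow, were concentrated in very few cells. Ngp was at 9.14, 3.51, 788, 0 and 35.1 CPM and Camp at 0, 1.41, 521, 0 and 14.8 CPM, so neither met the 4-fold rule. In D2_infiltrating 1, 864 of the 897 Ngp and Camp UMIs (96.3%) lay in 5 of 223 cells and 196 cells held none, and in D3_conflict 1 every one lay in 1 of 897 cells. In D1_mixed 1, with 10 neutrophil-like cells, all 1764 lay in 1 cell. The enzymes of azurophil granules, which neutrophil precursors make, were near 0: Elane was at 0 in all 5 libraries, Mpo at 0 to 1.48 CPM, Ctsg at 0 to 0.494 CPM and Prtn3 at 3.51 to 22.9 CPM, against a macrophage mean of 16.2 for the last. Of the 8 genes on that list, 0 met the 4-fold rule, including Srgn, the granule proteoglycan that many leukocytes make (mean 5022 CPM). Genes of dividing cells were low too, with Mki67 at 0 to 7.73 CPM and Top2a at 0 to 2.92 CPM, and 0 of 18 met the rule. Hmgb2, the most abundant of them, stood at 312 to 949 CPM.

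**Figure D2:**
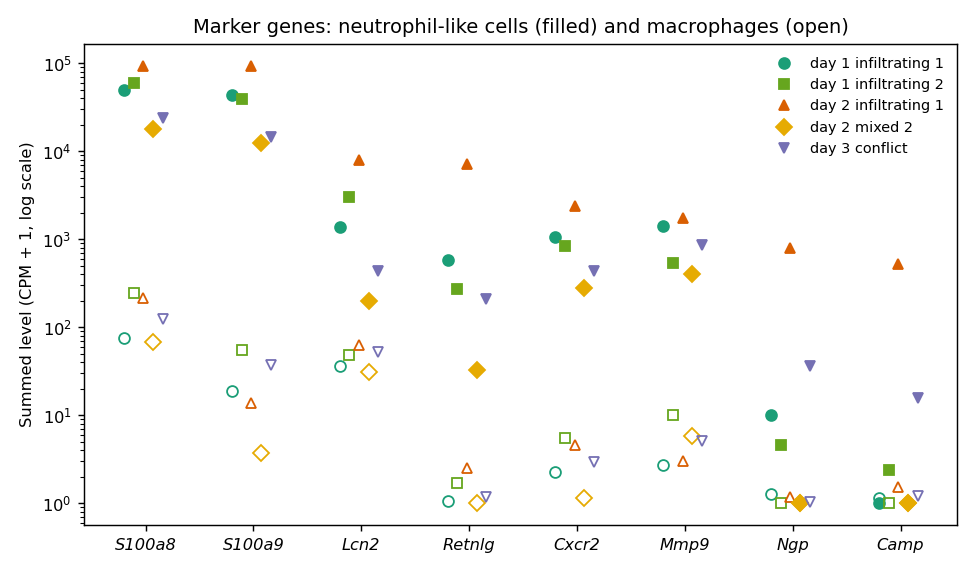
Summed level (CPM + 1, log axis) of the 8 marker genes in neutrophil-like cells (filled) and macrophages (open) of the 5 libraries, 1 symbol per library. For 6 markers the filled and open points do not overlap, while Ngp and Camp reach 788 and 521 CPM in D2_infiltrating 1 and lie at 35.1 CPM or below elsewhere.

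Receptors that guide and arm neutrophils were the next group. Cxcr2 was at 1058, 838, 2374, 281 and 435 CPM in neutrophil-like cells and 0.135 to 4.49 CPM in macrophages. Csf3r, the receptor for the growth factor G-CSF, was at 1490.3, 1048, 1734, 811 and 1003 CPM and varied least among the leading receptors, against 15.3 to 31.7 CPM in macrophages. Il1r2, a decoy receptor for interleukin-1, was at 1225, 977, 2524, 198 and 526.5 CPM. Hcar2, a receptor for ketone bodies and niacin, was at 288, 1181, 149, 1133 and 179 CPM, so D1_infiltrating 2 and D2_mixed 2 stood together above the other 3. Ccrl2, an atypical chemokine receptor, Fpr1, a formyl peptide receptor, and Siglecf, a sialic-acid-binding lectin best known from eosinophils, also met the rule, so 7 of 28 receptors were at least 4-fold higher and 0 lower (list median 1.01 log2 units). Siglecf was at 258, 30.2, 27.7, 83.2 and 238 CPM, high in D1_infiltrating 1 and D3_conflict 1, with the eosinophil genes Epx and Prg2 at 0. Thinned to 700 UMIs, 15.4% of cells in D1_infiltrating 1 and 14.3% in D3_conflict 1 had a Siglecf UMI, against 2.24% to 3.92% in the other 3. Ltc4s, leukotriene C4 synthase, was found in 31.0% of the 29 cells with and 4.4% of the 159 cells without Siglecf in D1_infiltrating 1, and in 21.3% of 122 and 17.5% of 775 in D3_conflict 1. Cxcr4, the marrow homing receptor, was 2.05 log2 units above macrophages in the median.

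Of 28 cytokine and chemokine genes, 2 were at least 4-fold higher in every library and 5 lower. Over all genes detected these shares were 0.620% and 1.03%, and 91 and 135 of the 3584 genes at 50 CPM or more in either type. Ccl4, a chemokine that draws monocytes and lymphocytes, was at 1723, 5298, 578, 2038 and 1134 CPM against 86.8 to 183 CPM in macrophages. Its neighbour in function Ccl3 was at 525.7, 2180.2, 246, 1850.5 and 757 CPM, with differences from 0.88 to 4.66 log2 units, so it missed the rule in D2_infiltrating 1. Csf1, the growth factor of macrophages, was at 368, 842, 280, 270.3 and 389.7 CPM against 8.90 to 32.0 CPM. Il1b, interleukin-1 beta, was at 962, 1091, 769, 146 and 419 CPM and 1.91 log2 units above macrophages in the median. Cxcl2, a ligand of Cxcr2, was at 713, 2614, 1413, 1071 and 213 CPM. The 5 genes at least 4-fold lower were Ccl2 (17.5 to 140.3 CPM against 2755 to 7770), Ccl7, Ccl9, Cxcl16 and Spp1 (osteopontin). Il6 and Il10 were at 0 in the neutrophil-like cells of all 5 libraries, which allows up to 3 UMIs in each, and Cxcl1 was at 0 to 0.703 CPM.

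Other genes set the neutrophil-like cells apart without a place on those lists. Among the 15 with the largest median difference were Amer2 (5.60 log2 units), Chil1, a chitinase-like protein (5.50), Ltb, lymphotoxin beta (5.32, range 5.12 to 5.58, the narrowest of the 15), Asprv1, a retroviral-like aspartic protease (4.88) and Hist1h2bc, a histone gene (4.74). Of 16 genes on the transcription factor list, 2 were higher, Cebpd (2.98) and Ltf, which is on the granule list too, and Cebpa (-3.01) and Irf8 (-3.28), factors of early granulocyte and of monocyte and dendritic fate, were lower in every library. Gfi1, a repressor needed in neutrophil precursors, was at 0 to 2.29 CPM. Of 7 NADPH oxidase genes, which make the oxidative burst, Rac2 was higher (2.38) and Cybb, the catalytic subunit, was at 0 to 70.0 CPM against 88.7 to 330.1 CPM in macrophages without meeting the rule. Of 20 survival and apoptosis genes only Gadd45b, a stress-induced gene, met it, at 485, 2664, 605, 2485 and 688 CPM. Slc40a1, the iron exporter ferroportin, was higher (3.99) and Hmox1, heme oxygenase, lower (-3.06). None of 27 hypoxia and glycolysis, 30 interferon-stimulated or 27 NF-kB and immediate early genes met the rule in either direction, with list medians of -0.21, -0.16 and 0.82 log2 units.

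Macrophage genes were low but not at 0. Of 12 macrophage markers 9 were at least 4-fold lower in every library and 0 higher, and of 8 monocyte markers 4 were lower (Ccr2, F13a1, Ms4a4c and Ms4a6c). Apoe, a lipid carrier, was at 68.6, 384, 14.6, 41.6 and 585 CPM against 4190, 7221, 5621, 9347 and 9228 CPM in macrophages. C1qb, of complement C1q, was at 11.4, 25.3, 2.92, 10.4 and 41.5 CPM against 479 to 1369 CPM, and Cd74, the chain that escorts MHC class II, at 105, 64.6, 13.1, 31.2 and 154 CPM against 1529 to 3744 CPM. All 3 were lowest in D2_infiltrating 1 and highest in D3_conflict 1. Of the remaining lists, Cd74 of 9 dendritic cell markers and Pf4 of 8 erythroid and platelet markers were lower, and none of the microglia, lymphoid, eosinophil, oligodendrocyte, astrocyte, neuron or endothelial markers met the rule. Markers of oligodendrocytes summed to 40.8 to 146 CPM, of astrocytes to 8.75 to 62.4, of neurons to 0 to 2.29, of endothelial and mural cells to 2.29 to 37.2, and of red cells and platelets to 10.4 to 688 CPM. Timp1, an inhibitor of matrix proteases, was lower among 14 genes of that kind, and Mmp9 was the higher one. Other genes among the 15 most below macrophages included Crip1, Lgals1, Fabp5, Fn1, C1qa, Ccl2, Ccl7, Spp1, Lyz2 and Ccr2, with medians from -5.90 (Ccl2) to -4.45 (Fabp5).

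The same picture held cell by cell at equal depth. Each cell was thinned to 700 UMIs, which left no cell out, since the shallowest held 713. S100a8 then had a UMI in 80.4% to 98.2% of neutrophil-like cells and 3.55% to 5.12% of macrophages. Csf3r had one in 43.1% to 64.6% against 0.629% to 1.77%, and Cxcr2 in 17.6% to 78.9% against 0% to 0.371%. Retnlg was found in 52.5% of cells in D2_infiltrating 1 and in 1.96% to 9.57% in the other 4. Lcn2 was found in 80.7% in D2_infiltrating 1 and 11.8% to 41.6% in the others. Ccl4 was found in 59.0% in D1_infiltrating 2, 45.1% in D2_mixed 2 and 18.8% to 26.2% in the others. Lyz2, in 90.1% to 96.5% of macrophages, had a UMI in 4.04% to 25.1% of neutrophil-like cells, and Apoe in 0% to 22.4%, with D3_conflict 1 highest for both. Without thinning, S100a8 had a UMI in 86.3% to 98.2% of neutrophil-like cells and 6.92% to 30.7% of macrophages, and Apoe in 2.24% to 39.5% and 78.9% to 92.1%. Free RNA in the droplets was not subtracted, and its part in the low shares was not tested.

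**Figure D3:**
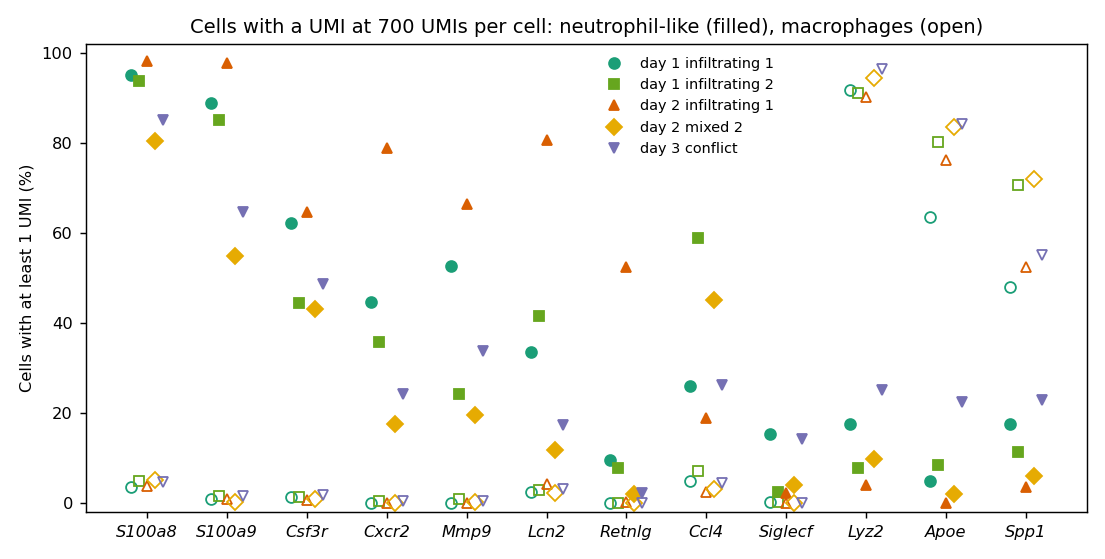
Percent of cells with at least 1 UMI of each gene after thinning every cell to 700 UMIs, in neutrophil-like cells (filled) and macrophages (open) of the 5 libraries. S100a8 lies at 80.4% to 98.2% in neutrophil-like cells and at 3.55% to 5.12% in macrophages, while Retnlg and Lcn2 set D2_infiltrating 1 apart from the other 4 libraries.

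The next question was whether neutrophil-like cells changed between days. With day as the only term, edgeR's quasi-likelihood test over 7179 genes and the 5 libraries called 0 genes for D2 against D1, D3 against D1 and D3 against D2 (0% of genes tested in each direction; unadjusted p under 0.05 in 106, 40 and 277 genes), and DESeq2 also called 0 in each. The lowest adjusted p of edgeR was 0.999, 0.999 and 0.998. The biological coefficient of variation was 0.459, on 2 residual degrees of freedom. D2_infiltrating 1 and D2_mixed 2, the 2 libraries of day 2, were the least alike of all 10 pairs (Spearman's rho 0.460 over 3032 genes, beside 0.518 to 0.899 in the other 9). D2_mixed 2 was also the shallowest of the 5, with 96190 UMIs summed, and the part of depth in the likeness was not tested. Leaving out D2_mixed 2 brought 128, 5 and 531 calls in the 3 contrasts, and leaving out D2_infiltrating 1 brought 1, 6 and 1. The levels are therefore given library by library.

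Genes of several lists, with granule genes in the lead, were highest in D2_infiltrating 1. All 8 markers were highest there, as were 18 of the 19 secretory and specific granule genes at 50 CPM or more on average, whereas 19.4% of all 3032 genes at that level were (33.6% after TMM scaling, under which it stayed 18 of 19). The exception was Lyz2. Lcn2, Mmp9, Ngp and Camp are on both lists, and 96.3% of the Ngp and Camp UMIs of D2_infiltrating 1 lay in 5 of 223 cells. D2_mixed 2 was lowest for 13 of the 19, beside 640 of all 3032 genes (15 beside 918 after TMM scaling). Hp, haptoglobin, was at 1406, 868, 3685, 301 and 375 CPM, Lrg1, a secreted glycoprotein, at 1337, 1169.9, 3163, 187 and 247 CPM, and Wfdc21 at 1086, 932, 4267, 72.8 and 249 CPM. Mmp8, the neutrophil collagenase, was at 57.1, 104, 726, 10.4 and 31.1 CPM and Cd177, a surface protein of mature neutrophils, at 22.9, 37.9, 252, 0 and 23.2 CPM. Ly6g, the classical surface marker of mouse neutrophils, was at 11.4, 11.2, 236, 0 and 6.42 CPM and so was near 0 outside D2_infiltrating 1. For each of these 6 genes D2_infiltrating 1 stood above all other libraries. Receptors followed in part, with 17 of 27 highest in D2_infiltrating 1 (18 after TMM scaling), and so did 14 of 22 interferon-stimulated genes (19), 12 of 21 hypoxia and glycolysis genes (14), 9 of 14 survival and apoptosis genes (9) and 7 of 10 genes of the transcription factor list (9), with the counts after TMM scaling in brackets. That list also holds Ltf, which is counted among the granule genes too. NADPH oxidase genes depended on the scaling, with 2 of 6 highest there in CPM and 6 of 6 after TMM scaling. Among the receptors was Selplg, a surface glycoprotein used in rolling along vessel walls, at 914, 796, 1794, 249.5 and 408 CPM.

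Cytokine and chemokine genes had another order. Of 15 cytokine and chemokine genes at 50 CPM or more, 12 were highest in D1_infiltrating 2, where 12.1% of all genes were (10 of 15 against 17.1% after TMM scaling). Il1rn, the interleukin-1 receptor antagonist, was at 199, 1156, 414, 946 and 185 CPM, and like Ccl3, Hcar2 and Gadd45b it was high in D1_infiltrating 2 and D2_mixed 2 and lower elsewhere. Gdf15, a stress-induced secreted factor, was at 80.0, 275, 17.5, 1424 and 189.7 CPM and Slc7a11, a cystine transporter, at 219, 1161, 172, 613 and 149 CPM. Gdf15, Slc7a11, Hcar2 and Gadd45b were picked here after their values were seen and stand for no list. Of 12 heme, iron and antioxidant genes 7 were highest in D2_mixed 2, beside 30.8% of all genes (5 beside 21.1% after TMM scaling), and the 19 NF-kB and immediate early genes had no single leading library in CPM, with at most 5 highest in any (10 in D2_infiltrating 1 after TMM scaling). Ferritin genes were highest in D2_mixed 2 or D1_infiltrating 2: Fth1 was at 32905, 51950.1, 26092, 86911 and 37869 CPM and Ftl1 at 18857, 43866, 11368, 38174 and 20958 CPM. Csf1 did not follow them and was high in D1_infiltrating 2 alone. D1_infiltrating 2 and D2_mixed 2 differ in day, sort, genotype and sequencing pool, and both are labelled male.

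**Figure D4:**
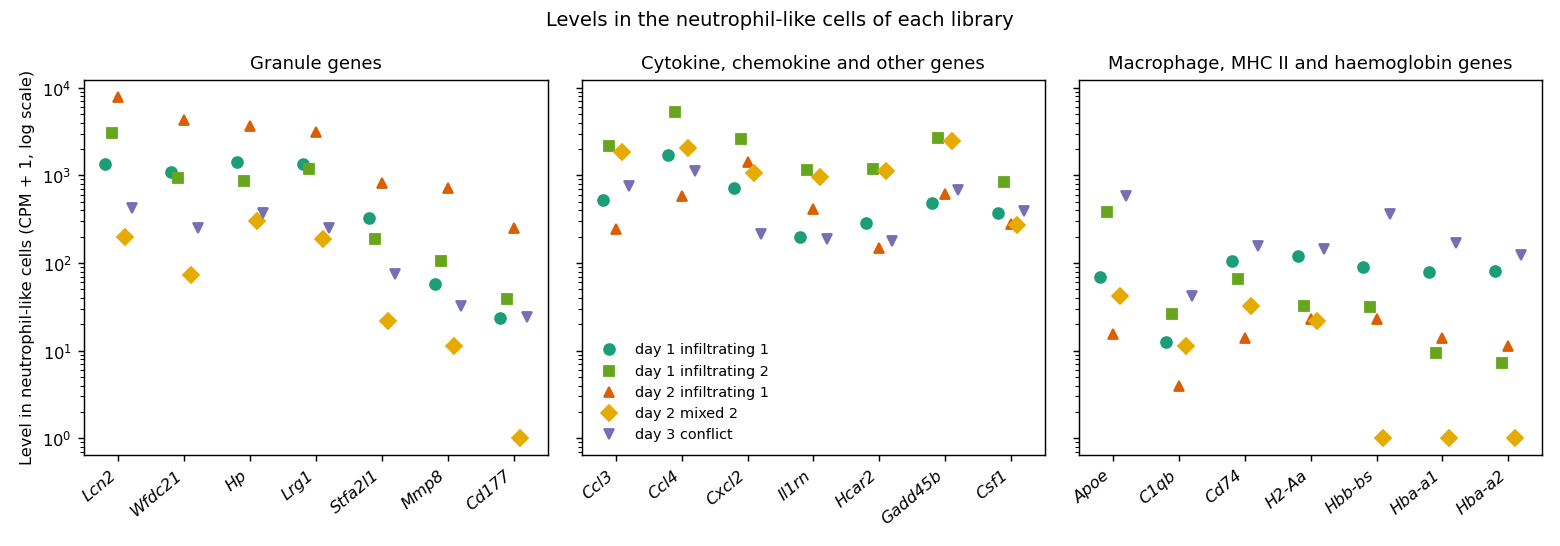
Level (CPM + 1, log axis) of granule genes, of cytokine and chemokine genes with Hcar2 and Gadd45b, and of macrophage, MHC class II and haemoglobin genes in the neutrophil-like cells of each of the 5 libraries. D2_infiltrating 1 is highest for all 7 granule genes shown, D1_infiltrating 2 for all 7 genes of the middle panel, and D3_conflict 1 for the 7 macrophage, MHC and haemoglobin genes.

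With sequencing pool as a term, which sets D2_mixed 2 aside because no other of the 5 libraries is in its pool, many genes passed. Each of day 2 and day 3 then rests on 1 library, and the spread comes from the 2 day 1 libraries and from the genes together, so these calls compare D2_infiltrating 1 and D3_conflict 1 as libraries. Each lone library is assumed to vary like the day 1 pair, so the errors and p-values of this fit do not speak to a difference between days, and the fit with both day 2 libraries called 0 genes. For D2 against D1, 88 genes were higher (1.23% of 7179) and 39 lower (0.543%). For D3 against D1, 1 was higher (0.0139%) and 14 lower (0.195%). For D3 against D2, 234 were higher (3.26%) and 336 lower (4.68%).

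In D2 against D1 the higher genes included the granule genes Camp, Ngp, Cd177, Mmp8, Ltf and Stfa1, the formyl peptide receptors Fpr1 and Fpr2, and the proteases Mmp8, Mmp19 and Mmp25. Of the Ngp and Camp UMIs of D2_infiltrating 1, 96.3% lay in 5 of 223 cells, so these 2 genes describe few cells. Retnlg was higher by 4.46 log2 units, and so was Ly6g, by 4.68. The lower genes included Apoe and Ms4a7 of 10 macrophage markers, Prdx1, a peroxiredoxin, and Ccl7. Of 27 hypoxia and glycolysis genes only Slc2a3, a glucose transporter, passed (higher). The list medians were 1.91 log2 units for granule genes, 0.76 for receptors and -2.38 for macrophage markers, beside -0.11 over all genes tested.

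D3 against D2 sets D3_conflict 1 against D2_infiltrating 1 in this fit. Granule and receptor genes were lower in the median, by list medians of -3.23 and -1.94 log2 units, beside 0.10 over all genes. Retnlg differed by -5.76 log2 units and Lcn2 by -4.84. Among the receptors, Cxcr2 differed by -3.09, while Siglecf was higher by 2.46. The list median was -1.685 for 27 hypoxia and glycolysis genes and -1.674 for 27 NF-kB and immediate early genes. Lower genes of the first list were Slc2a1, Slc2a3, Hk1, Pfkp, Pfkfb3, Pgk1, Slc16a3 and Hilpda. They serve glucose uptake, glycolysis, lactate export and lipid droplets. Among the lower genes of the second list were Ier3, Tnfaip3 and Egr1. Other list medians were -1.10 for 30 interferon-stimulated, -1.64 for 19 survival and apoptosis and -0.76 for 23 cytokine and chemokine genes. They were -1.55 for 14 genes on the transcription factor list, -1.68 for 10 matrix protease and inhibitor genes and -3.13 for 3 azurophil granule genes. For 14 heme, iron and antioxidant, 7 NADPH oxidase and 5 cell-cycle genes they were -0.11, -0.87 and 1.68. For D3 against D1 the list members that passed were Hbb-bs, higher, and Cxcl3, Egr1, Mmp19 and Pf4, lower. The contrasts D2 against D1 and D3 against D2 share D2_infiltrating 1, and the 2 contrasts of D3 share D3_conflict 1, so they are not independent of each other.

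Some genes of other cells were higher in the same contrast. List medians were 2.45 log2 units for macrophage markers, 2.51 for dendritic cell markers and 2.91 for erythroid and platelet genes. The higher macrophage markers included C1qa, C1qb, C1qc, Ms4a7 and Apoe, the last by 4.68 log2 units. Also higher were the MHC class II genes H2-Aa, H2-Ab1 and H2-Eb1, Cd74, and the haemoglobin genes Hbb-bs, Hba-a1 and Hba-a2. The 8 monocyte markers were split, with Ms4a4c higher, Ly6c2 lower and a list median of -0.56. The summed level of the 12 macrophage markers was 528, 1199, 203, 1123 and 1264 CPM over the 5 libraries, and that of the 9 dendritic cell markers 391, 203, 80.2, 198 and 612 CPM. So both sums were lowest in the library with the highest granule genes. Their part in the granule and receptor differences was not tested.

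**Figure D5:**
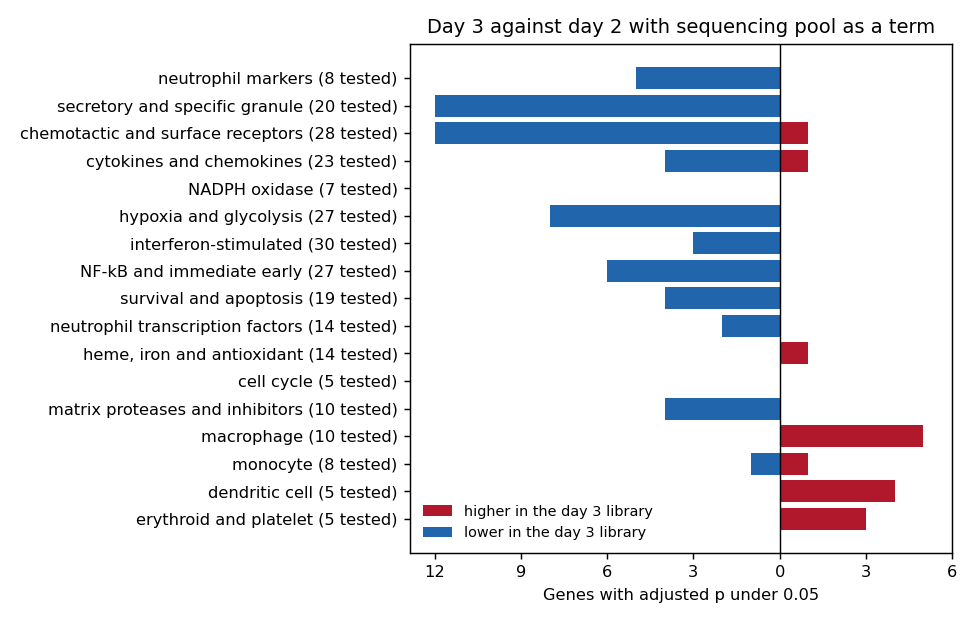
Number of genes of each list with an adjusted p under 0.05 for D3 against D2 in the fit with sequencing pool as a term (bars to the left are lower and bars to the right higher in D3_conflict 1 than in D2_infiltrating 1), with the genes tested in brackets. Granule genes (12 of 20) and receptors (12 of 28) lead on the lower side and macrophage markers (5 of 10) on the higher side.

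Whether neutrophil-like cells and macrophages changed differently was tested with both cell types of each library in 1 fit (edgeR, library as a block, 10519 genes, 2 residual degrees of freedom). For D3 against D1, 3 genes passed, all with the more positive change in neutrophil-like cells (0.0285%; unadjusted p under 0.05 in 207 genes): Hbb-bs by 5.36 ± 0.86 (SE) log2 units (adjusted p = 4.77e-06), Hba-a1 by 3.79 ± 0.80 (SE) (adjusted p = 0.00996) and Hba-a2 by 3.62 ± 0.80 (SE) (adjusted p = 0.0191). These encode the chains of adult haemoglobin of red cells. Hbb-bs was at 89.1, 30.2, 21.9, 0 and 359 CPM in neutrophil-like cells and 199.8, 4.06, 0.340, 0.270 and 4.3 CPM in macrophages, so D1_infiltrating 1 alone gave the high macrophage value. Without thinning, 2.21% of the 1269 macrophages of that library held a Hbb-bs UMI, so few cells carried the value. Of neutrophil-like cells, 13.8% held one in D1_infiltrating 1, 5.84% in D1_infiltrating 2 and 13.9% in D3_conflict 1. Without D1_infiltrating 1, 0 genes passed in either contrast (unadjusted p under 0.05 in 77 genes for D2 against D1 and 150 for D3 against D1), while the D3 against D1 differences kept their direction at 3.07 for Hbb-bs, 2.71 for Hba-a1 and 2.91 for Hba-a2. For D3 against D1, 1 gene passed without D1_infiltrating 2, 8 without D2_infiltrating 1 and 6 without D2_mixed 2. Alas2, the heme synthesis enzyme of red cell precursors, was at 0 to 1.48 CPM in neutrophil-like cells.

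For D2 against D1, 4 genes passed with the more positive change in neutrophil-like cells (0.0380%) and 1 with the more negative one (0.00951%; unadjusted p under 0.05 in 302 genes). Ifit2, an interferon-stimulated gene, differed by 3.75 ± 0.76 (SE) (edgeR adjusted p = 0.00434), Lipg, an endothelial-type lipase, by 4.26 ± 0.91 (SE) (adjusted p = 0.00976) and Ifit1bl1 by 7.10 ± 1.43 (SE) (adjusted p = 0.00434). Ifit2 was at 6.86, 20.4, 48.1, 41.6 and 56.8 CPM in neutrophil-like cells and 94.3, 31.1, 6.11, 29.4 and 79.5 CPM in macrophages, so the levels moved in opposite directions between D1_infiltrating 1 and D2_infiltrating 1. Ifit1bl1 reached no more than 13.1 CPM in neutrophil-like cells. Lipg was at 0, 16.2, 201, 0 and 9.38 CPM in neutrophil-like cells, high in D2_infiltrating 1 alone. Hbb-bs passed here too (4.72 ± 1.07 (SE), adjusted p = 0.0278). Acp5, an acid phosphatase of macrophages and osteoclasts, changed the other way (-3.94 ± 0.93 (SE), adjusted p = 0.0452), at 93.7, 59.7, 4.38, 0 and 108 CPM in neutrophil-like cells. DESeq2 called 0 genes in either contrast (unadjusted p under 0.05 in 90 and 39 genes), and edgeR on sums thinned to the shallowest also called 0 (50 and 65 genes). Under DESeq2 the sizes moved less than the calls. The D2 against D1 differences there were 3.95 for Ifit2, 4.67 for Lipg, 6.82 for Ifit1bl1, 4.53 for Hbb-bs and -3.87 for Acp5, and Hbb-bs for D3 against D1 was at 5.26. On thinned sums Hbb-bs was at 4.86 and 5.56 in the 2 contrasts, Ifit2 at 5.39 and Acp5 at -5.76, while Lipg dropped to 0.12 and Ifit1bl1 was not among the 3226 genes that passed the filter on low counts. Without D1_infiltrating 1 the D2 against D1 differences were 2.60 for Hbb-bs, 2.67 for Ifit2, 3.42 for Lipg, 5.9 for Ifit1bl1 and -4.00 for Acp5. For D2 against D1, 2 genes passed without D2_infiltrating 1, 83 without D2_mixed 2 and 3 without D3_conflict 1, and without D2_infiltrating 1 the differences of Hbb-bs, Lipg and Ifit1bl1 turned negative.

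Another 3 libraries held 10 to 14 neutrophil-like cells. S100a8 was at 74731 CPM in D1_mixed 1, 18359 CPM in D2_resident 1 and 10478 CPM in D3_infiltrating 1. S100a9 was at 1476 CPM in D3_infiltrating 1, and the median cell there held 0.0957% of its UMIs in the pair. Retnlg, Ngp and Camp were at 0 in D2_resident 1 and D3_infiltrating 1. Csf3r was at 735, 1174 and 384 CPM in the same 3 libraries. With so few cells these values are given without a comparison.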

How the data were processed

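Per the labels, libraries were made with the 10x Genomics 3′ droplet method from myeloid cells of cord lesions enriched by sorting, and the submitters' processing notes name Cell Ranger 3.1.0 and the builds GRCm38 and mm10. For every library the authors deposited a gene by cell matrix of raw UMI counts. For the series they deposited a table of cells with a type code, cluster, SLX code, sex code, total count and the percent of mitochondrial counts. The SLX code is what is called the sequencing pool here. The sums over genes equalled the deposited total in all 30958 cells. No cells were filtered. Doublets were not called, and the part of free RNA in the levels was not tested. Counts were summed per library and type where a library held at least 20 cells of it, in Python 3.11.15 (numpy 2.4.6, scipy 1.17.1, pandas 2.3.3). Day and day by cell type contrasts used edgeR 4.0.16 in R 4.3.3 (TMM, filterByExpr, quasi-likelihood, Benjamini-Hochberg over all genes, adjusted p under 0.05), with DESeq2 1.42.0 as an alternative; the day test was tested on simulated data. Levels against macrophages used log2 of CPM + 5 and a 4-fold rule. Shares of cells were compared by exact permutation.

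The genes named are the 8 markers, the 15 highest and 15 lowest against macrophages at 100 CPM or more, up to 4 genes a list by mean level, and genes that passed a contrast; a few others, such as Ly6g, Gdf15, Ltc4s and Alas2, and those named from the fit with sequencing pool as a term were chosen after their values were seen. The members and the gene lists were chosen with earlier results of these data known. Alternatives covered scaling, filters, cell minimums, depth, added terms and each library left out. Promoter stretches are from RefSeq and gene positions from GENCODE M21. Xist, Y-linked and reporter transcripts were not analysed here, and a few genes are not reported here.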

Additional observations from a re-analysis of the deposited data

Results flagged for a closer look

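The share of neutrophil-like cells in D2_mixed 2 (6.76%) stood apart from the other 7 mixed libraries of day 1 to day 3, taken as 1 group. Chance marks about 1 in 20 groups in this way, and 4 groups were tested. That library held 3.05% microglia, against 14.4% to 99.6% in the other mixed libraries, and of its cells that were not microglia 6.98% were neutrophil-like.

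The resident libraries, which enter no share test, held neutrophil-like cells at 0.818% (D2_resident 1), 3.14% (D3_resident 1) and 0.283% (D3_resident 2), against 0 in the laminectomy controls. D3_resident 1 was in the sequencing pool that gave most neutrophil-like cells.

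In the test of whether a change between days differed between neutrophil-like cells and macrophages, 5 genes passed for D2 against D1 (edgeR, log2 difference of the changes): Hbb-bs at 4.72, Acp5 at -3.94, Lipg at 4.26, Ifit2 at 3.75 and Ifit1bl1 at 7.10. For D3 against D1, Hbb-bs was at 5.36, Hba-a1 at 3.79 and Hba-a2 at 3.62. Each value rests on 5 libraries and 2 residual degrees of freedom.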

How the results depend on the processing

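Under every setting tried, the 30 genes named against macrophages stayed on their side. They had been picked for the same sign in every library used, so leaving out a library or changing the fold rule could not turn them. The number of genes at least 4-fold higher and lower was 165 and 301 with a pseudocount of 1 CPM and 42 and 72 with 20 CPM. At a 2-fold rule it was 447 and 539. It ranged from 97 to 124 and from 164 to 196 with 1 library left out, where it could not fall, since a call needs every library. The share by sort differed by 10.9 to 20.1 points with 1 library left out; among cells that were not microglia it differed by 4.8 to 14.1 points, and by 2.11 on log2 of the share plus 0.1% (exact permutation, adjusted p = 0.0333). The share by day had an exact permutation adjusted p of 0.00179 on that log2 scale and 0.0208 in cells with at least 2000 UMIs, and of 0.00804 on the log2 scale among cells that were not microglia. With 1 library left out these adjusted p-values were 0.00238 to 0.433 and 0.0208 to 0.231.

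Counts of genes between days (edgeR) depended on which libraries or terms entered. With no filter on low counts 6 genes passed for D2 against D1 and 16 for D3 against D2. With sex as a term 5 passed for D3 against D2, with sort as a term 61 for D2 against D1, with sequencing pool as a term 127, 15 and 570 for D2 against D1, D3 against D1 and D3 against D2, and with infiltrating and conflict libraries alone 128, 5 and 531. With 1 library left out the ranges were 0 to 128, 0 to 6 and 0 to 531. The replicate numbers pair no animals; with a replicate block, which here coincides with sex, 5 genes passed for D3 against D2 and 0 in the other contrasts. The difference between cell types in the change from D1 to D2 held 8 genes with median-of-ratios scaling, 0 with DESeq2, 2 with libraries of at least 10 cells and 0 on thinned sums, and from 0 to 83 with 1 library left out. From D1 to D3 the counts were 0 with DESeq2, 12 with at least 10 cells, 0 on thinned sums, and 0 to 8 with 1 library left out. Without D2_infiltrating 1 the D2 against D1 difference became -4.70 for Hbb-bs, -5.35 for Lipg and -3.60 for Ifit1bl1, and the highest values with 1 library left out were 6.84, 13.5 and 13.3. The cause was not tested. The fit over all time points adds no library, because no later library held 20 neutrophil-like cells. Sort as a term could not be fitted for day 3, since the labels of D3_conflict 1 disagree on its sort and that fit leaves it out.

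Precision is limited by 5 libraries, by 1 library at day 3 and by the shallow depth of these cells; p-values reflect the spread between pooled-animal libraries. Sort, genotype and sequencing pool cannot be told apart for the shares.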
